A study of Mus musculus with 7 samples.

Results

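The estrogen receptor beta (ERβ), encoded by Esr2, is a nuclear receptor that is made mainly by the granulosa cells of the ovary. It binds DNA as a dimer at the estrogen response element (ERE), a palindrome in which the half-site GGTCA faces its own reverse complement over 3 free bases, GGTCANNNTGACC. Each receptor of the pair contacts one of the half-sites, and natural elements often depart from the palindrome. The regions described here are ERβ-binding sites of mouse ovary that lie away from transcription start sites (TSS) and whose best element departs from the palindrome at exactly 1 of its 10 fixed bases.

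Chromatin immunoprecipitation followed by sequencing (ChIP-seq) with the ERβ antibody PPZ0506 was analysed in 3 ChIP replicates and 2 inputs, which are sheared chromatin sequenced without the antibody step. All 5 libraries came from ovaries of C57BL/6J mice that express endogenous ERβ. Each replicate was a pool of 14 ovaries from 7 mice aged 4 to 16 weeks, taken without selecting a stage of the estrous cycle. The 2 ERβ ChIP samples from ovaries with deleted ERβ were not analysed here, so binding of the antibody to other proteins was not measured at these sites. The tracks hold no expression, so markers of the tissue were not checked. A whole ovary was used, so a weak signal in every cell and a strong signal in few cells cannot be told apart.

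Sites were maxima of the mean signal in 200 bp with a value of at least 2. A maximum had to exceed both 4 times the mean input, for which the genome mean was the floor, and 4 times the 10-kb mean around it in its own library. Maxima within 200 bp of each other were merged, and a site had to be called in at least 2 of 3 ChIP replicates. Of 4253 such sites, 3628 were distal, meaning that their centre was not within 1 kb of any annotated TSS, and 1020 of the distal sites had a best element with exactly 1 mismatch in the 200 bp around the centre. These 1020 sites were 23.98% of all sites. A further 145 sites with a one-mismatch element lay within 1 kb of a TSS and were left out. The other distal sites comprised 239 with a perfect element, 1261 with 2 mismatches and 1108 with 3 or more. Because the sites were chosen by their ChIP signal over input, their signal and fold are a description and were not tested. Genome-wide, 0.529% of 200-bp windows held an element with at most 1 mismatch.

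The element is palindromic, so each mismatch is described in its own half-site, read from the outside inwards, with position 1 the outer G and position 5 the inner A next to the spacer. A substitution such as T3G names the fixed base, this position and the base found. The strongest site of each position is shown to make the 5 kinds of element visible, with 10 flanking bases on each side. The sequence is written 5′ to 3′ with the half-site that holds the mismatch first, and the capital marks the mismatched base.
Position 1, G1A, near Amn1: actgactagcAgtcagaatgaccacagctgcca
Position 2, G2T, in Erg: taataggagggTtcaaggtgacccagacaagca
Position 3, T3C, in Dgcr2: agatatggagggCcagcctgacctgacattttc
Position 4, C4T, in Fam214a: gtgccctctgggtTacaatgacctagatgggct
Position 5, A5T, in Vps13d: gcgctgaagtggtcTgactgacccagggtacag

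The position 1 site lay at chr6:149197201-149197400 (GRCm38, element on the minus strand when the mismatched half-site is read first) in intergenic sequence 8.59 kb upstream of Amn1, and its fold over input was 35.3, 41.4 and 41.7 in ChIP replicates 1, 2 and 3. The position 2 site lay at chr16:95435831-95436030 in intron 3 of 10 of Erg, a transcription factor of the ETS family, with the element on the minus strand and folds of 25.7, 22.9 and 16.1. The position 3 site lay at chr16:17856084-17856283 in intron 7 of 10 of Dgcr2, with the element on the plus strand and folds of 55.4, 74.4 and 79.7. The strongest position 2 site thus had a lower fold in every replicate than the strongest sites of positions 1 and 3. Position 2 held only 88 sites, against 283 and 426 at positions 1 and 3, so these maxima do not compare the positions. The position 4 site lay at chr9:74970724-74970923 in intron 2 of 12 of Fam214a, with the element on the minus strand and folds of 21.3, 31.8 and 28.0. The position 5 site lay at chr4:145023928-145024127 in intron 65 of 69 of Vps13d, with the element on the plus strand and folds of 29.2, 40.5 and 40.1.

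Replicates called the one-mismatch sites to a similar degree as other distal sites. Of the 1020 sites, 737 (72.3%) were called in all 3 replicates, against 68.9% of all distal sites. A further 200 were called in replicates 2 and 3 only, 58 in replicates 1 and 2 and 25 in replicates 1 and 3. The median signal in 200 bp was 3.57, 4.47 and 4.47 in ChIP replicates 1, 2 and 3, and 0.624 and 0.525 in Inputs 1 and 2. The median of ChIP replicate 1 was thus below those of replicates 2 and 3. The names inside the deposited tracks separate ChIP replicate 1 and Input 1 from the other 3 libraries, and each ChIP replicate is therefore given on its own below.

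The median fold of the one-mismatch sites was 6.16, 7.85 and 7.71 in the 3 ChIP replicates. A mean fold of at least 8 was reached by 424 sites, of at least 16 by 113 (11.1%) and of at least 32 by 15. Just inside and just outside the limits of the rule, the lowest maximum of a member had a signal of 2.01 and the highest excluded distal one-mismatch maximum one of 2.00. The fold over input was 4.003 inside and 3.9996 outside, the fold over the local 10 kb 4.01 and 3.998, and the distance to a TSS 1017 and 968 bp.

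The signal centred on the element. In the mean over the 1020 elements, the central 80 bp had a signal of 5.33, 6.92 and 7.02 in ChIP replicates 1, 2 and 3, and the outermost flanks of the plotted 1000 bp had 0.481, 0.513 and 0.519. The inputs were almost flat, with 0.651 and 0.551 in the centre and 0.549 and 0.495 in the flanks. The peak was 240 bp wide at the level midway between centre and flank in each ChIP replicate. The element lay a median of 15 bp from the site centre, within 25 bp in 72.7% of sites and within 50 bp in 94.5%. Beyond the 200-bp window, this distance was used only to choose between equally good elements. Such ties occurred at 2.75% of one-mismatch and 15.3% of two-mismatch sites. The median distance was 13 bp for perfect and 16 bp for two-mismatch elements.

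**Figure D1:**
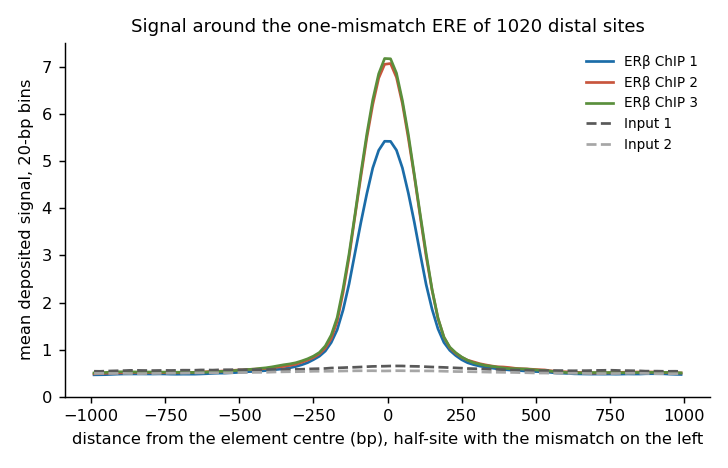
Mean deposited signal (20-bp bins) against the distance from the centre of the one-mismatch ERE in bp, over 1020 distal sites, with the mismatched half-site turned to the left; solid lines are the 3 ChIP replicates and dashed lines the 2 inputs. All 3 ChIP lines peak over the element, at 5.33 to 7.02 in the central 80 bp, and the inputs stay below 1.

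The next question was whether the position of the mismatch bears on whether an element is occupied. Members were distributed unevenly over the positions. Position 3, the T in the middle of the half-site, held 426 sites (41.8%), position 1 held 283 (27.7%), position 5 held 117 (11.5%), position 4 held 106 (10.4%) and position 2 held 88 (8.63%). These shares depend on how often each kind of element occurs in the genome, so the occupied share of all distal elements was computed. There were 53531 distal one-mismatch elements with an input signal of at least 0.5 times the genome mean and no perfect element within 200 bp, of which 1066 (1.99%) lay within 100 bp of a site that 2 or more replicates called. All 1020 members were among these 1066.

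Per library, 1.68%, 2.29% and 2.14% of the one-mismatch elements were occupied in ChIP replicates 1, 2 and 3. Perfect distal elements were occupied more often, with 9.42%, 12.1% and 12.9% of 2092 elements, and two-mismatch elements less often, with no test fixed for these values, at 0.204%, 0.267% and 0.255% of 741705 elements. The 3 classes did not overlap in any pair of libraries. Two-mismatch elements within 200 bp of a perfect element were left out, but those near a one-mismatch element were kept.

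Among the one-mismatch elements, those with the mismatch at position 3 had the highest occupied share in each library. It was 2.85%, 3.97% and 3.69% of 12790 elements in ChIP replicates 1, 2 and 3, a mean of 3.50% ± 0.586 (SD, n = 3 libraries). Position 2, the inner G of the GG pair, had the lowest share, with 0.591%, 0.835% and 0.835% of 12693 elements and a mean of 0.754% ± 0.141. Position 1 had a mean of 2.21% ± 0.351 of 13709 elements, position 4 of 1.34% ± 0.121 of 8350 and position 5 of 2.20% ± 0.360 of 5989. In the order of the means, the neighbouring positions 1 and 5 did not differ beyond their spread, and the ranges over libraries of positions 2, 4 and 3 did not overlap with each other.

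**Figure D2:**
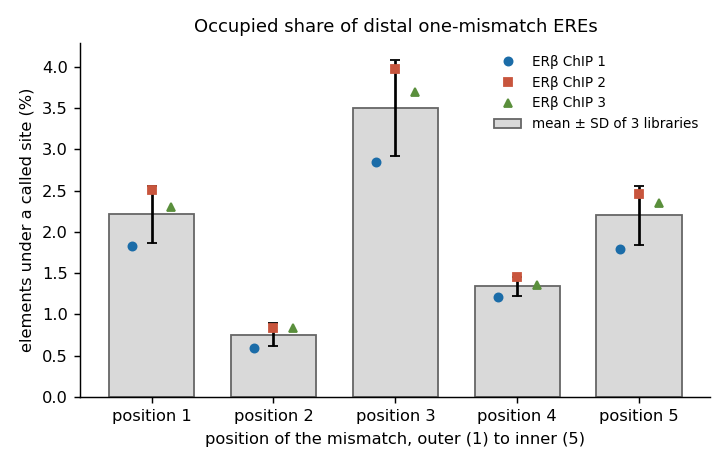
Share of distal one-mismatch EREs that lie within 100 bp of a called site (y axis, percent) by the position of the mismatch in its half-site (x axis, 1 outermost to 5 next to the spacer); grey bars with error bars are mean ± SD of the 3 ChIP libraries and points are single libraries. Position 3 is highest, at 2.85% to 3.97%, and position 2 lowest, at 0.591% to 0.835%.

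Set against the elements of the other 4 positions together, position 3 was higher by 1.54, 2.21 and 2.03 percentage points in the 3 libraries and position 2 lower by a mean of 1.68 ± 0.244 percentage points (mean difference -1.68). Position 4 had a mean difference of -0.83 ± 0.241, position 1 of 0.234 ± 0.0526 and position 5 of 0.183 ± 0.0567 percentage points. Each of these differences had the same sign in 3 of 3 libraries. Position 5 pools unlike substitutions. Of its 125 elements at sites called in at least 2 replicates, 44 were A5G, which made up only 323 of its 5989 elements. The position 5 difference without A5G was not computed, so its sign may depend on that substitution. The exact two-sided sign-flip test over the 3 libraries gave p = 0.25 for each position, also after adjustment over the 5 positions, and 0.25 is the smallest p that 3 libraries allow. The libraries were called at largely the same sites, so they do not sample the elements independently.

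Within a position, the occupied share also varied with the base found. At position 3 the occupied share was 5.15% ± 0.887 (SD, n = 3 libraries) for T3G, 3.51% ± 0.529 for T3A and 2.23% ± 0.450 for T3C. At position 4 it was 3.64% ± 0.180 for C4T, 0.968% ± 0.126 for C4G and 0.0901% ± 0.0804 for C4A. The highest share thus belonged to a transversion at position 3 and to a transition at position 4. At position 1, G1T had 2.48% ± 0.414 and G1A 2.07% ± 0.342. At position 2, G2T had 1.10% ± 0.183, G2A 0.903% ± 0.209 and G2C 0.354% ± 0.0551.

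Position 5 held the most occupied of the 15 substitutions. A5G elements, whose half-site reads GGTCG, were occupied at 10.2%, 16.4% and 16.1% in ChIP replicates 1, 2 and 3, whereas A5T had a mean of 2.01% ± 0.238 and A5C of 0.705% ± 0.0958. The A5G share was above that of perfect elements in each of the 3 libraries. Only 323 such elements were present among the distal elements. Of these, 44 (13.6%) lay at a site that at least 2 replicates called, and each of the 44 was the element of a member. The exact Clopper-Pearson 95% interval of this share was 10.1% to 17.9%, which covers counting error only. It includes the 11.4% of perfect elements that lay at such sites. At the other extreme, none of 587 G1C elements lay at such a site, for which the same kind of interval reaches up to 0.626%. In 1 library, ChIP replicate 2, 0.170% of them were occupied. Single substitutions were compared after their values had been seen, and no test was run on them.

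**Figure D3:**
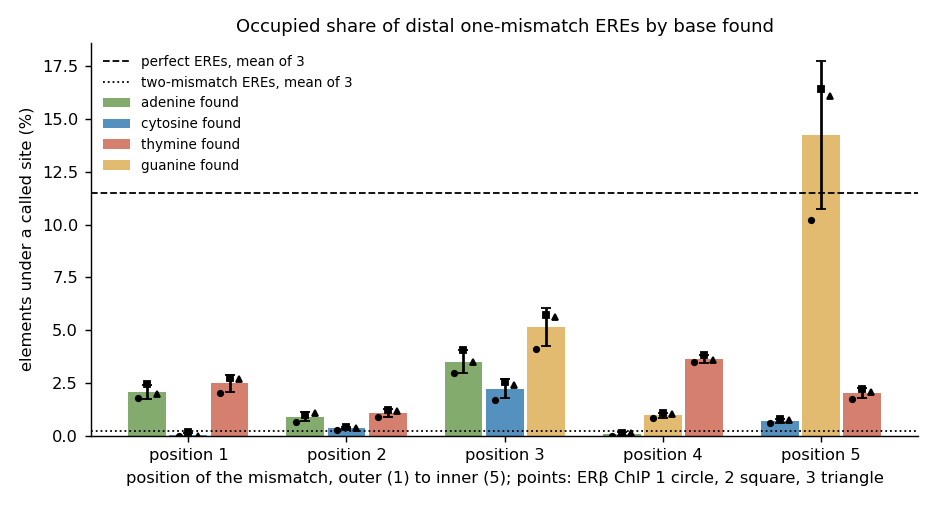
Occupied share of distal one-mismatch EREs (y axis, percent) by mismatch position (x axis) and by the base found there (colour); bars with error bars are mean ± SD of the 3 ChIP libraries and points are single libraries. The guanine bar at position 5 stands at 14.2%, above the dashed mean of perfect EREs at 11.5%, and the other bars lie between 0.0568% and 5.15%.

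Both A5G and G1C place a CpG inside the fixed bases. Elements with another substitution that held a CpG in the spacer or at the border of the element were occupied at 2.39% ± 0.275 (SD, n = 3 libraries; 4752 elements), and those without a CpG at 1.94% ± 0.311 (47869 elements). With elements in soft-masked repeats left out, the A5G share was 14.8% ± 3.71. The median distance to a TSS was 14.4 kb for A5G and 14.1 kb for G1C elements, and the median signal of Input 1 was 0.484 and 0.426. The methylation of these sites was not measured here.

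The median fold of the 44 A5G members was 5.85, 7.44 and 7.07 in ChIP replicates 1, 2 and 3. It was thus below that of all 1020 members in each replicate (6.16, 7.85 and 7.71). A5G elements were also found at the genes Nr5a1, Cebpb and Greb1, each in a site called in all 3 replicates and far above these medians. By mean fold, the Nr5a1 and Cebpb sites are the strongest at those genes, and the Greb1 site is the next after the strongest. The first gene encodes steroidogenic factor 1, the second a transcription factor of the luteinizing response, and the third a growth regulator induced by estrogen in other tissues.
Nr5a1, intron 4: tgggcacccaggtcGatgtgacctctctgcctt
Cebpb, intergenic: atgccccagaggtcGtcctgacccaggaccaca
The Nr5a1 site (chr2:38704441-38704640, element on the minus strand, inside a soft-masked repeat) had ChIP signals of 22.1, 26.7 and 31.3 and input signals of 1.15 and 0.799, and lay 7.69 kb downstream of the nearest Nr5a1 TSS. The Cebpb site (chr2:167760768-167760967, minus strand) had a signal of 22.6, 34.0 and 35.0 against 1.28 and 0.960, and lay 72.0 kb downstream. The Greb1 site (chr12:16764791-16764990, plus strand, in intron 1) had a signal of 23.5, 28.4 and 33.6 against 1.23 and 1.06.

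The fold of the sites differed less between positions than the occupied share. Each ChIP library was measured at distal sites that the other libraries both called, so its own signal did not choose the sites (held-out fold). The same inputs chose the sites and divided the signal, so only the ChIP signal was held out. All sites had also passed the same minimum fold of 4 in the libraries that called them, which limits how far the medians can differ. The median held-out log2 fold of position 3 sites was 2.76, 3.30 and 3.28 in ChIP replicates 1, 2 and 3, and that of position 2 sites 2.48, 3.04 and 2.90. The means over libraries ran from 2.81 ± 0.290 (SD, n = 3 libraries) at position 2 to 3.11 ± 0.307 at position 3, with position 4 at 2.88, position 1 at 2.94 and position 5 at 2.97. Position 3 was the highest of the 5 in each library, and position 2 was the lowest in replicates 1 and 3 and position 4 in replicate 2. Within a library, the differences between positions were smaller than those between ChIP replicate 1 and the other replicates.

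The held-out fold was then compared with that of the neighbouring classes. One-mismatch sites had a median log2 fold of 2.69, 3.17 and 3.16 (937, 762 and 791 sites in ChIP replicates 1, 2 and 3). Perfect sites had 2.67, 3.22 and 3.30, which differed from the one-mismatch sites by a mean of 0.0564 ± 0.0800 (SD, n = 3 libraries) and not in the same direction in every library (exact sign-flip p = 0.5). Two-mismatch sites had 2.65, 3.08 and 2.97, lower than the one-mismatch sites by 0.0384, 0.0920 and 0.186 in 3 of 3 libraries, with an exact sign-flip p of 0.25 (0.5 adjusted over both comparisons). Under a minimum fold of 8 in place of 4, both differences changed sign, to -0.0910 and -0.10. With ChIP signal not divided by input, the difference between one-mismatch and two-mismatch sites was 0.0184 (exact sign-flip p = 0.75) and no longer had the same sign in 3 of 3 libraries.

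Every distal one-mismatch element was also compared between ChIP and input with limma on log2(200-bp mean signal + 0.5), with Benjamini-Hochberg adjustment over all 53531 elements. ChIP was higher than input at an adjusted p under 0.05 in 1421 elements (2.65%) and lower in 73 (0.136%). Among the elements of the 1020 members, 1007 passed, with a median log2 difference of 2.07, and this contrast is the one that chose the sites. Of the 51986 elements more than 300 bp from any call in any library, 109 (0.210%) were higher and 73 lower. The higher ones were 48 of 12172 position 3 elements (0.394%), 31 of 13282 position 1 elements, 13 of 5801 position 5 elements, 9 of 8189 position 4 elements and 8 of 12542 position 2 elements (0.0638%). The lower ones were 23, 26, 12, 5 and 7 elements at positions 1 to 5, so at position 2 more elements were lower than higher. At an unadjusted p under 0.05, 1386 of the uncalled elements were higher and 1654 lower. These elements were set apart by the same ChIP and input signal, so the counts are a description. The mean log2 ratio of ChIP to input at the uncalled elements was close to 0 at each position, from -0.026 ± 0.0143 (SD, n = 3 libraries) at position 2 to 0.0097 ± 0.0140 at position 1. The uncalled elements were set apart by lacking a call and by a minimum input, and the tracks were normalised to a common total. A mean near 0 therefore cannot decide whether a weak signal was spread over them.

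The bases outside the palindrome also differed between occupied and other elements. An extended half-site is commonly written with a purine before GGTCA. Read in the direction of the half-site, the base just outside was A in 54.2% of the half-sites of members and G in 34.0%, against 37.9% and 23.99% of the half-sites of all 53531 elements, and T in 7.30% against 31.6%. Elements with a purine on both sides were occupied at 3.30%, 4.45% and 4.17% in the 3 libraries (21120 elements). Those with a purine on one side only were occupied at a mean of 1.01% ± 0.184 (SD, n = 3 libraries) when it flanked the intact half-site and 0.949% ± 0.184 when it flanked the mismatched one. Those with a purine on neither side had 0.166%, 0.190% and 0.202% (8409 elements). The share of all two-mismatch elements was higher in 3 of 3 libraries. That share covers every outer base and also elements near a one-mismatch element, and only 13 members had a purine on neither side. These values therefore do not rank the classes.

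**Figure D4:**
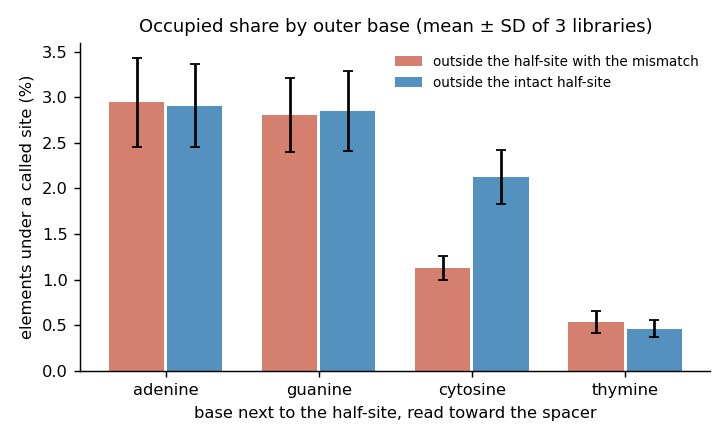
Occupied share of distal one-mismatch EREs (y axis, percent, mean ± SD of 3 ChIP libraries) by the base next to each half-site, read toward the spacer (x axis), for the half-site with the mismatch (red) and the intact half-site (blue). Adenine and guanine stand between 2.81% and 2.94%, and thymine at 0.536% and 0.460%.

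Of the 1020 members, 792 (77.6%) had a purine on both sides and 13 on neither. Outer C was asymmetric, with 2.12% ± 0.294 occupied outside the intact half-site and 1.13% ± 0.132 outside the mismatched half-site. Outside the intact half-site an outer C always precedes a G, but it precedes another base where the mismatch is at position 1. The compared elements thus differ in sequence and in mismatch position, and the cause of the asymmetry was not tested. Within each mismatch position the share with purines on both sides was above that with none, from 6.82% ± 1.06 against 0.414% ± 0.0591 at position 3 to 1.34% ± 0.261 against 0.0688% at position 2. Elements in soft-masked repeats were occupied less often than others, at 0.683%, 1.06% and 0.944% against 1.902%, 2.57% and 2.42%. Without them the shares by outer purine were 4.83% ± 0.708 for both sides and 0.214% ± 0.0208 for neither. These flanks were examined after other results of the data were known, and no test was run on them.

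The spacer was less skewed. The third free base, next to the intact half-site, was G in 37.2% of members and 24.5% of all elements, and elements with G there were occupied at 3.10% ± 0.470 (SD, n = 3 libraries) against 1.25% ± 0.200 for T. Members comprised 419 of the 960 possible one-mismatch sequences, 184 of them once. The 3 most frequent ones are shown because each was the element of several members, with the spacer and the other fixed bases in lower case.
T3A, 25 members of 207 elements: ggAcactgtgacc
G1T, 19 members of 200 elements: Tgtcacagtgacc
T3G, 14 members of 102 elements: ggGcagcctgacc
The next in number, 1 T3C and 2 T3G sequences, had 13 members each, and no test was run on these counts.

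The design also allowed the question whether the signal leans toward the intact half-site, since the side of the mismatch was not used to choose the sites. The centroid of ChIP signal over input within 150 bp lay 0.748, 0.588 and 0.358 bp from the element centre toward the intact half-site in ChIP replicates 1, 2 and 3, a mean of 0.565 ± 0.196 bp (SD, n = 3 libraries; exact sign-flip p = 0.25, the smallest 3 libraries allow). The SD between sites was 16.2 to 19.1 bp. Sites whose 2 mismatches both lay in one half-site had offsets of 1.64, 0.231 and 1.09 bp (741 sites). Perfect elements, for which the direction is arbitrary, had 0.460, -0.660 and -0.92 bp. In size, the offset of one-mismatch sites was above that of perfect elements in replicate 1 and below it in replicates 2 and 3, and its mean turned to -0.390 bp under a minimum fold of 8. No lean toward the intact half-site was detectable at the resolution of the tracks.

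Other motifs were searched in the 200 bp of each site on both strands. The GATA motif, bound by the GATA factors of granulosa cells, was searched as GATAA after 3 partly free bases (written BNW in the IUPAC code). The NR5A motif, bound as a monomer by steroidogenic factor 1 and its relative, was CAAGGTCA after any pyrimidine and so contains the half-site of the ERE. The AP-1 motif was TGACTCA, with either a cytosine or a guanine in the middle, and belongs to the dimers of Fos and Jun proteins. The FOXO motif, read by forkhead factors, was searched with the letters TGTTTAC. The GATA motif was present in 188 members (18.4%), AP-1 in 79 (7.75%), NR5A in 65 (6.37%) and FOXO in 44 (4.31%). Of all 200-bp windows of the genome, 16.5% held GATA, 3.11% AP-1, 0.693% NR5A and 2.98% FOXO. Leaving out motifs that overlapped the element, NR5A remained in 3.73% and AP-1 in 6.27% of members, since an NR5A motif can share its half-site with the ERE.

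Against distal two-mismatch sites, in each library's own calls, GATA was less frequent at one-mismatch sites by 4.47, 5.69 and 5.15 percentage points in ChIP replicates 1, 2 and 3 (mean 18.8% ± 0.697 against 23.9% ± 0.609, SD, n = 3 libraries). The exact sign-flip p was 0.25, and 0.333 adjusted over the 4 motifs. FOXO was less frequent in 3 of 3 libraries, with a mean difference of -0.94 ± 0.178 percentage points, and AP-1 more frequent in 3 of 3, with 0.932 ± 0.398 percentage points, both with the same exact p. NR5A differed by 0.208, -0.204 and -1.65 percentage points (exact p = 0.75), and with motifs that overlapped the element left out it was present in 3.73% of the members and 5.63% of two-mismatch sites, a comparison with no test. Further exact half-sites outside the element were present in 43.6% of the members, in 53.1% of two-mismatch sites and 38.5% of perfect sites. Over all distal one-mismatch elements, 29.5% had one within 100 bp, and those elements were occupied at 2.502%, 3.36% and 3.25% against 1.33%, 1.84% and 1.68% for those without. This value was examined with no test.

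Most members lay in introns (542, 53.1%) or between genes (426, 41.8%), and 12 lay in coding exons, 25 in UTRs and 15 in non-coding exons. Of the intronic sites, 181 (33.4%) were in the first intron of the transcript used. The corresponding shares of two-mismatch sites were 55.4% intronic and 37.99% intergenic. The median distance to the nearest protein-coding TSS was 31.0 kb, with 23.1% of sites within 10 kb and 21.3% (217 sites) over 100 kb away. Few members were close to each other: 45 (4.41%) had another member within 10 kb, and 137 (13.4%) had any other distal site within 10 kb. Members were found on each of the autosomes and on chromosome X, which had 29 of them and 1.38% of its 2171 elements occupied in at least 2 replicates, against 2.66% on chromosome 11.

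Among the sites that all 3 replicates called, the strongest 20 spanned mean folds of 30.0 to 69.8. Of these 20 sites, 12 had the mismatch at position 3, 5 at position 1 and 3 at position 5, and 0 at positions 2 or 4. Of all 1020 members, 41.8% had it at position 3, 27.7% at position 1 and 11.5% at position 5. Positions 4 and 2 held 10.4% and 8.63% of them. The 20 were picked by their fold, so their counts are a description. Among the 20, 14 lay in introns and 6 in intergenic sequence, at distances of 3.98 to 131 kb from the nearest protein-coding TSS. ChIP replicate 1 had the lowest fold of the 3 replicates at all 20. The strongest, in Dgcr2 and 17.8 kb upstream of Car15, which encodes a carbonic anhydrase, had a signal of 20.4, 27.4 and 29.3 in the ChIP replicates against 0.332 and 0.372 in the inputs.

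**Figure D5:**
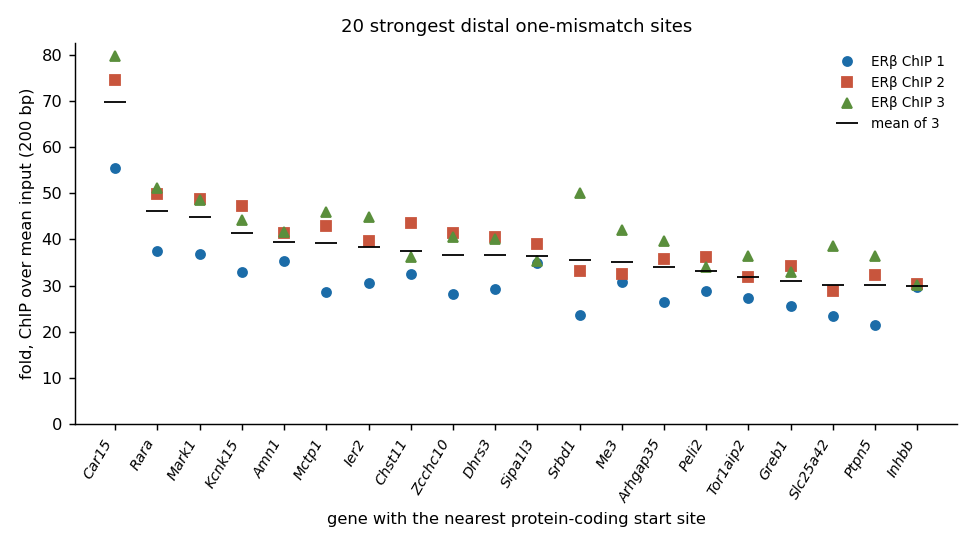
Fold of ChIP over mean input in 200 bp (y axis) at the 20 strongest distal one-mismatch sites, each named by the gene with the nearest protein-coding TSS (x axis); points are single ChIP replicates and bars their mean. The means fall from 69.8 near Car15 to 30.0 near Inhbb, and ChIP replicate 1 is the lowest point at each site.

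The second strongest lay in intron 2 of Rara, the retinoic acid receptor alpha gene (chr11:98955481-98955680), with folds of 37.6, 49.8 and 51.0. Mark1, a kinase of microtubule regulation, had an intergenic site 68.3 kb upstream with the highest ChIP signal of the 20, at 32.5, 43.0 and 42.8. Both elements were T3C, as was that near Car15, although T3C was the least occupied of the substitutions at position 3. The sites of Rara and Mark1 are shown beside that of Greb1, which has T3G.
Rara, T3C: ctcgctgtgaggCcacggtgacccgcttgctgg
Mark1, T3C: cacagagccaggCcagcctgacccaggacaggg
Greb1, T3G: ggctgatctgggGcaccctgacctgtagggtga
The other sites of the 20 were named by Kcnk15 (in Rims4), Amn1, Mctp1, Ier2 (in Cacna1a), Chst11, Zcchc10, Dhrs3 (in Vps13d), Sipa1l3, Srbd1, Me3, Arhgap35, Peli2, Tor1aip2 (in Fam163a), Slc25a42, Ptpn5 and Inhbb. Inhbb, which encodes a subunit shared by activin and inhibin, had an intergenic G1A site 9.56 kb upstream with nearly equal folds of 29.6, 30.2 and 30.1. At Srbd1 the replicates spread most in relation to their mean, with 23.5, 33.3 and 49.99.

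The 1020 sites were nearest to the TSS of 900 of 21728 protein-coding genes (4.14%). 801 of these genes had 1 site, 81 had 2, 16 had 3, Mex3c had 4 and Nrip1 had 5. Genes of 6 lists relevant to the ovary and to estrogen were then looked up. The lists were drawn up with earlier results of these data known, and long intergenic surroundings give a gene more sites, so their shares are descriptions. At least 1 member was nearest to 7 of 20 genes of nuclear receptors and coregulators, to 5 of 16 estrogen-responsive genes of other tissues, to 5 of 16 granulosa and gonad transcription factors and patterning genes, to 4 of 16 ovulation, vessel and matrix genes, to 3 of 16 genes of gonadotropin and TGF-β family signalling and to 1 of 16 genes of steroid and cholesterol synthesis and uptake.

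Among the estrogen-responsive genes, Nrip1, a corepressor of nuclear receptors, had 5 member sites. The strongest, in intron 3 of 3 and 1.87 kb downstream of the nearest TSS (chr16:76321688-76321887, C4T), had ChIP signals of 24.5, 30.0 and 31.5, with 1.12 and 1.03 in the inputs. The other 4 lay 123 to 299 kb away, with mean folds of 10.4, 4.40, 4.39 and 4.12, and the weakest 3 were called in replicates 2 and 3 only. Greb1 had 3 sites within the gene, with mean folds of 30.9 ± 4.65, 24.9 ± 4.40 and 8.76 ± 1.01 (SD, n = 3 libraries), and with T3G, A5G and T3A elements. The nearest to Myc lay 727 kb away in a non-coding gene, with folds of 11.5, 15.2 and 11.2. Bcl2, which restrains apoptosis, had 1 intronic site of low fold (5.58, 3.35 and 4.53) that was called in replicates 1 and 3. Rara, described above, also belongs to this list.

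Among the listed genes of nuclear receptors and coregulators, which do not include Rara, the Nr5a1 site described above was the strongest, with folds of 22.6, 27.3 and 32.03. Nr1i2, the pregnane X receptor, had an A5C site in intron 1 (14.4, 16.05 and 13.3) and Pparg a T3A site in intron 2 (10.4, 13.9 and 13.3). Esr2 itself had a T3C site in intron 8 (chr12:76132464-76132663) with folds of 5.59, 7.56 and 6.43. Nr0b2 had a site with a mean fold of 6.64 ± 2.57 (SD, n = 3 libraries), called in replicates 2 and 3 only. Esr1, the gene of the α receptor, had none.

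Among the granulosa transcription factors, Foxl2, which maintains granulosa identity, had 2 intergenic sites. The stronger, an A5T element 19.3 kb upstream (chr9:98935851-98936050), had a signal of 10.4, 14.7 and 13.97 in the ChIP replicates against 0.475 and 0.440 in the inputs. The weaker, a G2C element, had folds of 6.03, 13.8 and 11.4. Cebpb had, beside the A5G site above, a T3A site in an intron of A530013C23Rik with folds of 2.68, 5.05 and 6.52, called in replicates 2 and 3 only. Emx2 had 2 sites with mean folds of 9.42 ± 2.74 and 5.598 ± 2.13 (SD, n = 3 libraries). Gata4 (5.11 ± 2.42) and Fosl2 (4.56 ± 1.38) had 1 weak site each, called in replicates 2 and 3 only.

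In the remaining lists, Vegfa, the main growth factor of vessels, had a C4T site in intron 2 (chr17:46026434-46026633) with folds of 21.2, 28.2 and 24.3. Ednra, an endothelin receptor gene, had a mean fold of 14.02 ± 1.97 (SD, n = 3 libraries), and Angpt4 and Sema7a had 6.09 ± 1.07 and 6.06 ± 0.926. The site nearest to Lhcgr, the luteinizing hormone receptor gene, lay 72.8 kb upstream with folds of 8.35, 12.9 and 18.2. Smad3, a mediator of TGF-β family signals, had 7.61, 7.85 and 7.76. Cyp11a1, which carries out the first step of steroid synthesis, had a G1A site in intron 1 of its longest coding transcript, 2.96 kb upstream of the nearest TSS, with folds of 3.44, 6.29 and 6.07, called in replicates 2 and 3 only. These values leave Vegfa and Ednra with the higher folds of the 3 lists and Cyp11a1 with the lowest, apart from Inhbb, which is among the 20 strongest sites above.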

How the data were processed

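The deposited tracks hold signal (coverage), one library per file. Per the labels and the study's methods, the authors aligned uniquely mapped reads to GRCm38 (mm10) with STAR, made tracks with HOMER and normalised each to a common total; libraries were not pooled, and treatment of duplicates is not given in the sources used here. The study states how many reads of each ChIP sample were aligned. The tracks hold segment means, so reads per site are unknown and no interval from reads was computed. The median segment ranged from 269 to 519 bp. Total signal was 928 to 948 M per library. The 2 knockout samples were not analysed here.

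The sites, elements and motifs were found with Python 3.11.15 (numpy 2.4.6) on the GRCm38 sequence and GENCODE vM21. ChIP and input were compared with limma 3.58.1 (lmFit, eBayes with trend, R 4.3.3) on log2(signal + 0.5) over all distal one-mismatch elements, since the study's test on tag counts needs counts. Per-library values were compared by exact two-sided sign-flip tests. Replicates are pools of separate mice per the study's methods. Named sites were the 20 highest mean folds called in all 3 replicates, the strongest site of each mismatch position, the strongest site of each listed gene (some are not reported here; where a listed gene had several, the others are given too, chosen after their values were seen), and the sites next to each limit. The members and lists were chosen with earlier results of these data known. Scripts were tested on simulated data. Alternatives concerned thresholds, merging, TSS distance, motif window, left-out libraries, input filter, repeats, pseudocount, replicate block and track-name batch.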

Additional observations from a re-analysis of the deposited data

How the results depend on the processing

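Of 245 values under 20 alternatives, 231 stayed the same by the criterion for their kind. Tested differences kept their sign, position shares stayed within the exact binomial interval of the main share, and counts stayed within 1.5 times. Sizes could still change among these. A further 9 shares or counts moved beyond their limit, and 5 differences changed sign. The summit offset ran from 0.179 bp (without ChIP replicate 1) to 1.07 bp (over 5 kb from a TSS), the perfect minus one-mismatch difference fell to 0.0087 without Input 2, the NR5A difference reached -1.95 percentage points over 5 kb from a TSS, and the position 1 difference ran from 0.0320 (minimum fold 8) to 0.599 percentage points (no input filter). A minimum fold of 8 left 370 sites, of which 46.2% had the mismatch at position 3, and turned the held-out differences to -0.0910 (perfect minus one mismatch) and -0.10 (one minus 2 mismatches) and the summit offset to -0.390 bp. Without division by input the perfect minus one-mismatch difference was -0.0051 and the one minus 2 mismatches difference 0.0184 (exact p = 0.75). The cause was not tested. Leaving out a ChIP replicate gave 762 to 937 sites and an NR5A difference of -0.93 to 0.0022 percentage points, with 0.0022 without ChIP replicate 3. In the limma comparison, no input filter gave 776 elements higher and 39 lower. Leaving out an input gave 774 (Input 2) and 825 (Input 1) higher and 102 to 115 lower, and leaving out a ChIP replicate 1348 to 1628 higher and 50 to 114 lower; fewer samples were then fitted.

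The replicate number as a block (replicate block) gave 1421 higher, of which 1279 were among the 1421 without the block, and 172 lower; ChIP replicate 3 has no input of its number and does not enter this contrast. Deviations of same-numbered ChIP and input libraries correlated by 0.0122 and -0.0078, so the numbers were not taken to pair the libraries. The sign of each difference between mismatch positions stayed the same under every alternative run, none of which left out a single substitution. The width of the tracks' segments limits how finely a summit can be placed, and 3 libraries cannot give a sign-flip p below 0.25.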
